A study of Mus musculus with 8 samples.

Results

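CD4 T cells with no captured Foxp3 transcript, taken as conventional by the rule, that share 1 T cell receptor with at least 3 others in the same tumour library were compared with such cells whose receptor was found in 1 such cell. The members were selected by a rule on receptor and transcript counts. A cell entered if it was called a cell by the receptor pipeline and held exactly 1 productive, high-confidence alpha (TRA) contig and 1 beta (TRB) contig. It also had to hold at least 1 unique molecular identifier (UMI, a tag that counts one captured RNA molecule) of Cd4, none of Foxp3, Cd8a or Cd8b1, at least 1000 UMIs in all and at most 10% of UMIs from mitochondrial genes. A clone was every such cell with the same CDR3 nucleotide sequence (the receptor stretch that contacts antigen), V gene and J gene in both chains. Of 4017 cells with 1 receptor pair in the library, 1034 met the CD4 rule and fell into 730 clones. Of these, 35 clones held 4 or more cells (expanded clones, 236 cells), 612 held 1 cell, and the 83 clones of 2 or 3 cells were left out of the comparison. Over the 3 receptor files used, the series holds 6121 cells with 1 receptor pair and 1057 CD4 clones by the same rule, and the other libraries hold no CD4 clone of 4 or more cells. Clone size, Cd4, Foxp3, Cd8a, Cd8b1, total UMIs, mitochondrial share and the sameness of 2 receptors were used by the rule and are given as a description only.

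The mice carried NestinCreERT2;Fus1;RFPTdT and developed ependymoma driven by the ZFTA-RELA fusion, in which the Nestin promoter restricts Cre to neural progenitor cells, so the tumour model is confined to that lineage and its T cells are the host's own. They were randomised at 3 weeks of age to 1 intrathecal injection of vehicle IgG or of mavrilimumab (5 mg per kg), an antibody against the GM-CSF receptor alpha chain, and brains with tumour were taken, per the labels, at 6 to 8 weeks of age and sorted after staining for CD45, a leukocyte marker, and Ter119, an erythroid marker. The paper describes the tumours of a group as pooled, so clones cannot be assigned to animals, and the sequenced cells as extravascular and taken at recurrence. The labels also have the mice followed to a humane endpoint, so the age at sampling is not certain. The receptor file labelled mavrilimumab 2 shared all 5659 of its cell barcodes with the expression library labelled mavrilimumab 1 and between 955 and 2114 with each of the others. The sample name stored inside each of the 3 receptor files named the other treatment than its label, so the treatment of these cells is uncertain and no treatments were compared. All contrasts were made between clones of 1 library, and their p-values measure the spread between clones of 1 pool, not between animals. Of the 647 clones compared, 612 are 1 cell each, where spread between clones and between cells cannot be told apart.

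Each T cell carries a receptor assembled from V, D and J segments, with bases added or removed where they join. Cells with the same 2 chains are therefore taken to descend from 1 founder, which was not tested in these pooled tumours. A naive CD4 T cell circulates through lymph nodes with CCR7 on its surface, and loses it when antigen drives it to divide. Dividing CD4 clones may become helper, cytotoxic, exhausted or Foxp3-expressing regulatory T cells, and regulatory T cells restrain the others.

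The receptors of the 5 largest expanded clones are shown because a shared pair of such chains is what defines a clone. Each line gives the CDR3 coding sequence 5′ to 3′ as assembled in the receptor file. Capitals mark bases covered by neither the V nor the J alignment of the contig, and bases that come from a D segment or were added may also lie among the aligned ones.
Clone 1 alpha (TRAV6N-6, TRAJ33): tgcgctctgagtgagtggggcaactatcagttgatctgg
Clone 1 beta (TRBV3, TRBJ1-2): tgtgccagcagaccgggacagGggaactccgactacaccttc
Clone 2 alpha (TRAV16D-DV11, TRAJ52): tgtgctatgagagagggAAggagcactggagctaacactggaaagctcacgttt
Clone 2 beta (TRBV19, TRBJ1-6): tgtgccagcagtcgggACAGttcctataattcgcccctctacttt
Clone 3 alpha (TRAV14N-3, TRAJ37): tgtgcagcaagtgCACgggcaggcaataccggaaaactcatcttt
Clone 3 beta (TRBV31, TRBJ2-5): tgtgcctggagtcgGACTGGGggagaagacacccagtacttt
Clone 4 alpha (TRAV12D-3, TRAJ6): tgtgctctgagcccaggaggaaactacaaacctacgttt
Clone 4 beta (TRBV19, TRBJ1-3): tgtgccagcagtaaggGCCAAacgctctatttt
Clone 5 alpha (TRAV7-5, TRAJ31): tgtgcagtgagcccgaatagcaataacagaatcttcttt
Clone 5 beta (TRBV19, TRBJ2-3): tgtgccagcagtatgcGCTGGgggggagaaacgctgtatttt
The 5 receptors differ in every CDR3, although clones 2, 4 and 5 all use TRBV19. Over the 35 expanded clones there were 35 distinct alpha and 35 distinct beta CDR3 sequences, from 26 TRAV genes, 16 TRBV genes and 34 pairs of beta V and J.

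No difference in receptor use between expanded and single clones passed a test. Which V gene a clone has and how long its CDR3 is were not used to size it. Of 67 V genes tested with Fisher's exact test (two-sided), 2 had p under 0.05 and 0 passed after Benjamini-Hochberg adjustment, with a smallest adjusted p of 0.869. TRAV12N-2 was used by 3 of 35 expanded and 8 of 612 single clones, and TRBV2 by 0 of 35 and 66 of 612. The alpha CDR3 was 42.0 ± 3.71 bases (SD, n = 35) in expanded and 40.7 ± 3.71 bases (n = 612) in single clones, a difference of 1.26 bases (two-sided permutation test, p = 0.0606, adjusted p = 0.121 over the 2 chains). The beta CDR3 was 41.9 bases in both, with a difference of 0.04 bases (permutation p = 0.998). The TRAV11 with TRAJ18 pairing of invariant natural killer T cells was found in 0 expanded and 6 single clones, and the TRAV1 with TRAJ33 pairing of mucosal-associated invariant T cells in 0 and 1. Of the 35 expanded receptors, 2 were found again in the receptor library labelled vehicle IgG 1, in 2 cells, and 0 in that labelled mavrilimumab 1. Those 2 cells carried no barcode that the libraries share, and 1 barcode of a cell with a receptor pair was shared in all.

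The 35 expanded clones were of very unequal size and many were not made of cells by the CD4 rule alone. Clones 1 and 2 held 37 and 36 cells, 30.9% of the expanded cells together. The others held 4 to 9 cells, and 20 of the 35 held exactly 4. The expanded clones were 4.79% of the CD4 clones and held 22.8% of the CD4 cells. When all 533 cells with these 35 receptors were counted, whatever their transcripts, 191 of them held a Foxp3 UMI, and these lay in 11 of the 35 clones. Among single clones, 20 of 612 (3.27%) had such a cell elsewhere in the library. The rule leaves no Foxp3-positive cell in a clone without further cells, and only 75 of the 612 had further cells. The 2 shares are therefore not comparable and are given as a description.

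**Figure D1:**
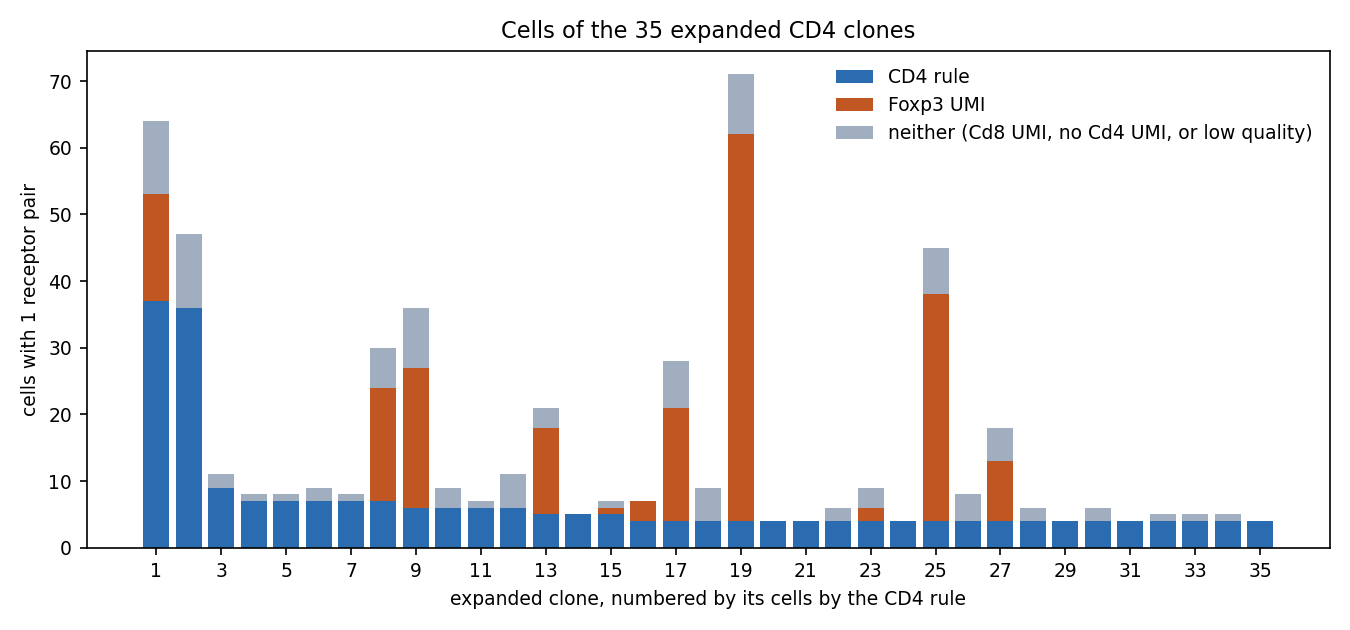
Number of cells with 1 receptor pair (vertical axis) in each of the 35 expanded clones (horizontal axis, numbered by their cells by the CD4 rule), split into cells that meet that rule, cells with a Foxp3 UMI, and all others. Clones 19 and 25 hold 58 and 34 Foxp3-positive cells beside 4 that meet the CD4 rule, while clone 2 holds 36 that meet it and no Foxp3-positive cell.

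Clone 1 held 64 cells, of which 37 met the CD4 rule and 16 held Foxp3. Clone 2 held 47 cells, 36 of them by the rule and 0 with Foxp3. In 7 of the 11 clones the cells with Foxp3 outnumbered those that met the rule, up to clone 19 with 58 against 4 among 71 cells. Expanded clones by the CD4 rule thus included members of clones that were mostly Foxp3-positive, and the name conventional holds for them only as the rule. A regulatory T cell in which no Foxp3 molecule was captured also meets the rule, and its part in the results below was not tested. Calls in all 35 clones are therefore given beside those in the 24 without any Foxp3-positive cell. This removal is uneven, since a single clone can be screened only through further cells, which 75 of 612 have. Regulatory T cells with no captured Foxp3 can remain among the single clones. What this does to the differences of the 24 clones was not tested. Cells with a Cd8a or Cd8b1 UMI were found in 14 of the 35 clones. In the other direction, 75 of the 612 single clones were found in further cells that did not meet the rule, and 10 of them in 4 or more cells in all.

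Depth per cell was alike in both kinds of clone. The UMIs per cell of expanded clones ran from 2013 over a median of 3410 to 10144, and those of single clones from 1018 over 3542 to 27663. Summed over their cells, the 35 expanded clones held 867952 UMIs and the 612 single clones 2497449, so an expanded clone was read more deeply as a whole. A gene is then found in more of the expanded clones, and its range over them is narrower, at an equal level, so numbers of clones with a UMI and highest levels are given as a description. The median mitochondrial share was 1.76% and 1.77%. The summed level of 8 T cell identity genes was 24.6 to 88.6 UMIs per 10000 in expanded clones, so all carried T cell transcripts, and 7.04 to 142 in single clones. RNA of other cell types was at a high level in a few clones and at a low level in more. Cells with at least 10 UMIs of microglial, B cell or dendritic cell genes were 9 of 236 expanded cells (3.81%), in 7 clones, and 22 of 612 single cells (3.59%). The summed level of 8 microglial markers ran from 0 over a median of 0.246 to 114 UMIs per 10000 in expanded clones and from 0 over 0 to 215 in single clones. The 7 B cell markers ran from 0 over a median of 2.98 to 453 in expanded clones and from 0 over 0 to 925 in single clones. One of them, Ighm, had a UMI in 34 of 35 expanded and 277 of 612 single clones. All 4 erythroid markers were at 0 in expanded clones. Counts of calls are therefore also given without those cells, a rule chosen after the data were seen, and the value of a gene described is given where its call was lost without them.

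In expanded clones Igfbp4, Dapl1, Ccr7, Satb1 and Il7r, genes of naive and central memory T cells, were lower, Tigit, Pdcd1, Ikzf2, Ccl5 and Gzma were higher, and part of the higher genes were microglial or plasma cell transcripts concentrated in few clones. UMIs were summed per clone and 10529 genes with a UMI in at least 10 clones were tested with edgeR's quasi-likelihood test and Benjamini-Hochberg adjustment. At an adjusted p under 0.05, 42 genes were higher in expanded clones (0.399% of the genes tested) and 10 were lower (0.095%), with a median log2 difference of 0.02 over all genes. These counts depended strongly on the clones and on the test. Of the 42 higher genes, 11 were still called without the 11 clones that hold Foxp3-positive cells (24 clones against 592), 19 without the cells with RNA of another type, 4 with neither and 6 when 1 cell per clone was used. The reduced comparisons called 0.117% of their genes higher and 0.00971% lower without the Foxp3-holding clones, and 0.312% higher and 0.146% lower without the cells with RNA of another type. Of the 10 lower genes, 1 was still called without the Foxp3-holding clones, 10 without the cells of another type, 4 with neither and 0 with 1 cell per clone. Taking 1 cell per clone cut the expanded group from 236 to 35 cells, so fewer UMIs stood behind each gene. The quasi-likelihood fit as first planned called 112 higher and 32 lower, and edgeR's likelihood ratio test 4 and 0. DESeq2, with clones scaled by the same UMI totals, called 1 and 2 and left 8988 adjusted p-values unset. Its median log2 difference over all genes was -0.93.

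**Figure D2:**
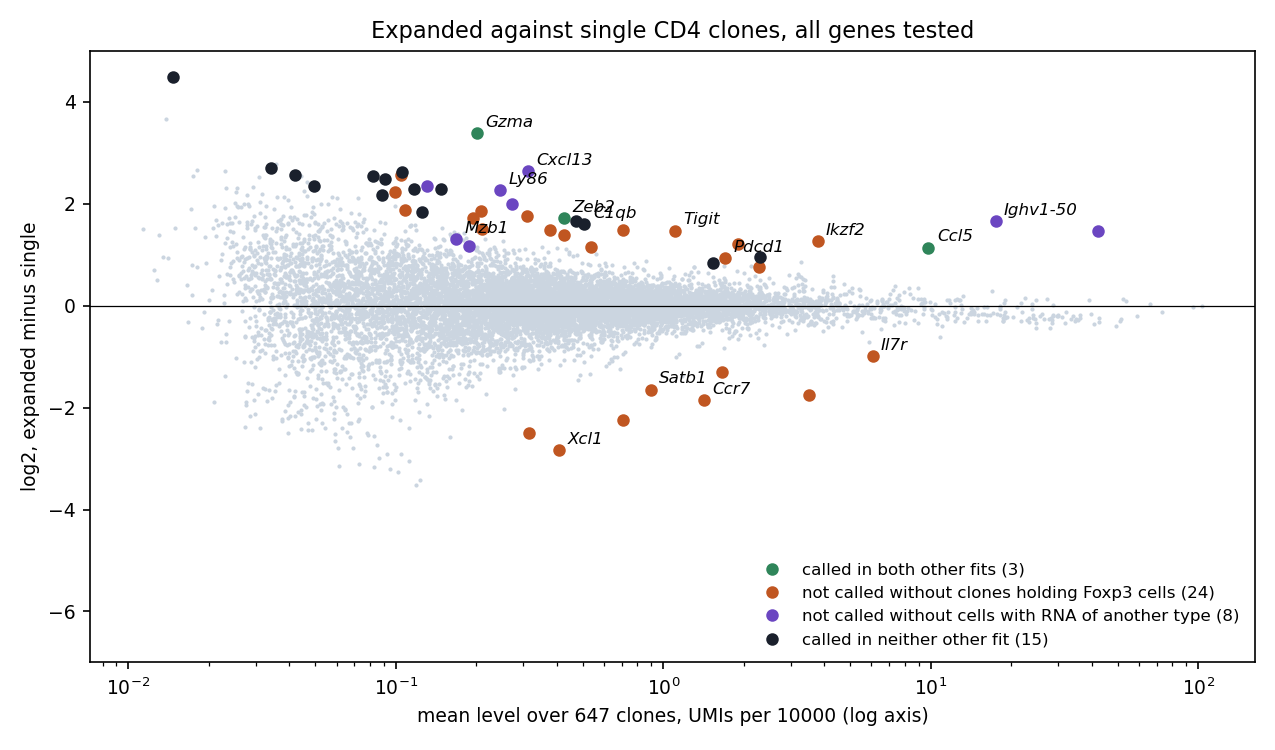
Difference between expanded and single clones (vertical axis, log2 of the fitted ratio) against the mean level over 647 clones (horizontal axis, UMIs per 10000, log scale) for every gene tested with a finite ratio. Coloured points are the genes called, split by whether they were called again without clones holding Foxp3-positive cells and without cells with RNA of another type, where a gene no longer tested counts as not called. Igfbp4 and Dapl1 have no UMI in expanded clones and no finite ratio, so they are not drawn.

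Genes of naive and central memory T cells held 6 of the 10 lower genes. All 14 listed genes were tested, 6 were lower and 0 higher, and their median log2 difference was -1.0 against 0.02 over all genes. Without the clones that hold Foxp3-positive cells 1 of them was lower, and without cells carrying RNA of another type 8 were lower. The median without the Foxp3-holding clones was -0.57, but it leaves out Igfbp4 and Dapl1, which had no finite ratio. The median of -1.0 counts these 2 genes at a floor of 3 UMIs, so the 2 medians are not comparable. Igfbp4, an insulin-like growth factor binding protein gene transcribed by naive T cells, had 0 UMIs in the 35 expanded clones and 122 in 27 of the single clones. With the floor of 3 UMIs over the expanded clones, it was at least 14.1-fold lower (adjusted p = 2.66e-06). It was called again in each of the 3 reduced comparisons (adjusted p = 0.000428, 9.36e-08 and 3.39e-05). With 1 cell per clone, which leaves 35 of the 236 expanded cells, it was not called. Most single clones held no Igfbp4 molecule either. Dapl1, a further gene of naive cells, had 0 UMIs against 49 and was at least 5.68-fold lower (adjusted p = 0.00189, and 0.0659 without Foxp3-holding clones).

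Ccr7, the lymph node homing receptor, was seen in 15 of 35 expanded and 157 of 612 single clones. Its level ran from 0 over a median of 0 to 2.39 UMIs per 10000 in expanded clones and from 0 over 0 to 42.6 in single clones, with means of 0.405 ± 0.564 and 1.48 ± 3.64 (SD). Most clones of either kind held no Ccr7 molecule, so the groups overlap at 0. The log2 difference was -1.85 (SE 0.36, adjusted p = 0.000154). Without Foxp3-holding clones the Ccr7 difference was -1.55 (adjusted p = 0.0671), so the call was lost.

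Satb1, a chromatin organiser of developing and naive T cells, had a log2 difference of -1.65 (SE 0.40, adjusted p = 0.0123), and of -1.94 without Foxp3-holding clones, where it was not called (adjusted p = 0.0657). It was called without cells carrying RNA of another type (-1.88, adjusted p = 0.000742) and with neither (-2.28, adjusted p = 0.00219). Il7r, the receptor for the survival cytokine interleukin 7, was lower by 0.99 (SE 0.25, adjusted p = 0.024), with a median of 2.68 UMIs per 10000 in expanded and 2.93 in single clones. In the 11 clones with Foxp3-positive cells the mean of Il7r was 1.38, in the other 24 it was 4.02, and in single clones 6.23, and without Foxp3-holding clones the log2 difference was -0.69 and was not called (adjusted p = 1.00). Of the listed genes that did not pass, Tcf7 had a log2 difference of -0.35, Lef1 of -0.63, Klf2 of -0.71 and S1pr1 of -0.48, all in the same direction, and of -0.068, -0.46, -0.33 and -0.14 without Foxp3-holding clones. Outside the list, Ly6c2, a surface antigen of memory T cells and monocytes, was lower by 1.76 on the log2 scale (SE 0.36, adjusted p = 0.00061). Scml4 was lower by 1.30 (adjusted p = 0.00135). Xcl1, a chemokine for cross-presenting dendritic cells, had 7 UMIs in 4 expanded clones against 136 in 43 single clones (log2 difference -2.83, adjusted p = 0.000969). None of these 3 was called without the Foxp3-holding clones, where the log2 difference was -1.33 for Ly6c2 (adjusted p = 0.253), -1.33 for Scml4 (adjusted p = 0.0559) and -2.25 for Xcl1 (adjusted p = 0.208). With cells carrying RNA of another type left out as well, Ly6c2 was called again (-1.85, adjusted p = 2.90e-06), and Scml4 and Xcl1 were not.

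**Figure D3:**
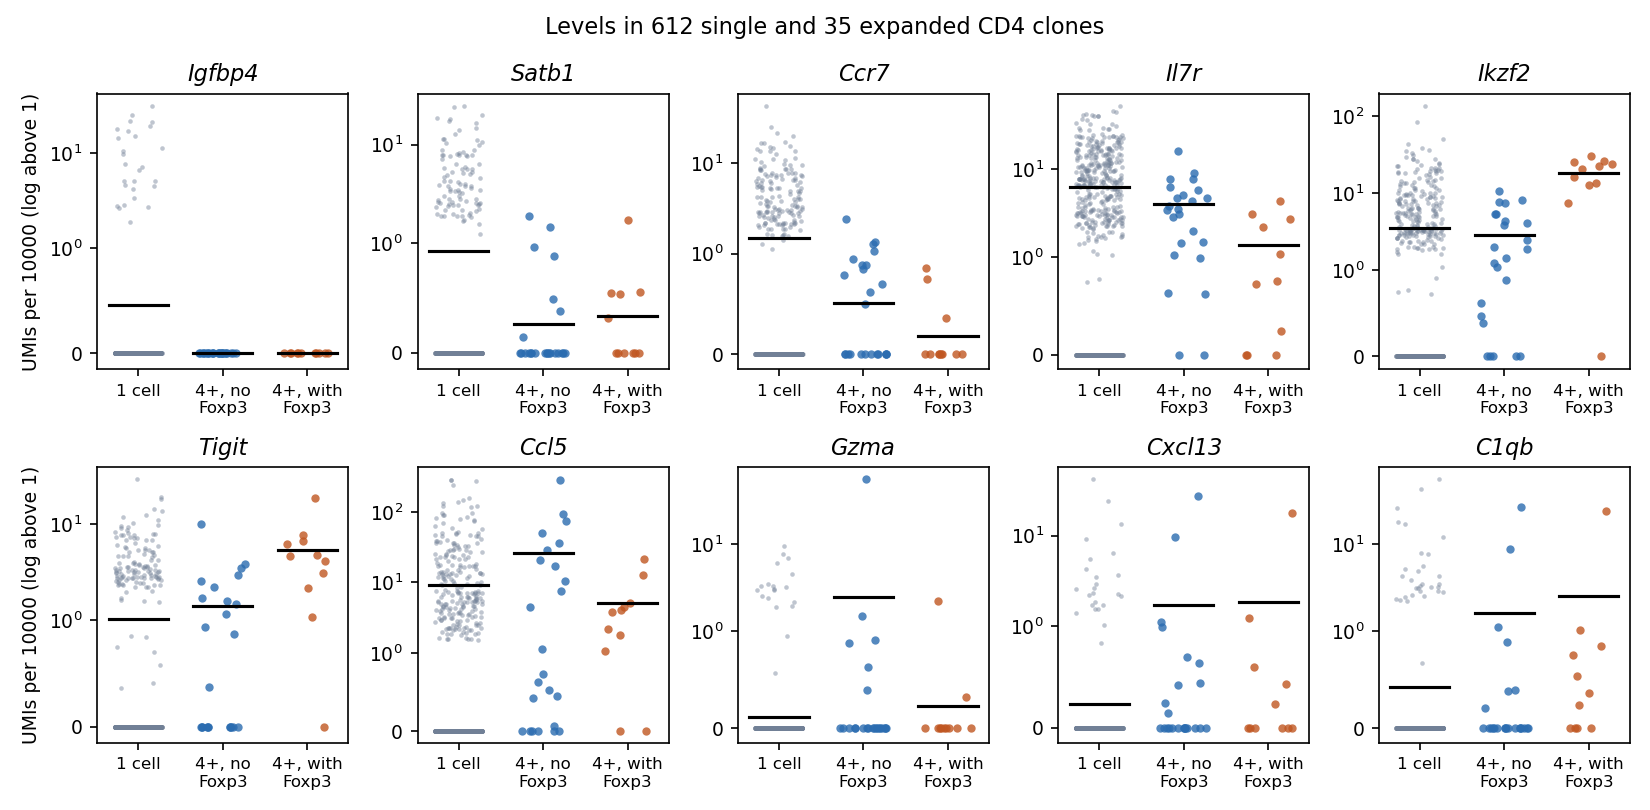
Level of 10 genes (vertical axis, UMIs per 10000, linear up to 1 and logarithmic above) in each single clone and each expanded clone, the expanded ones split by whether the clone holds a Foxp3-positive cell. Horizontal bars are means. Igfbp4 is at 0 in every expanded clone, and Ikzf2 is high in the clones that hold Foxp3-positive cells, with means of 18.1 in those, 2.90 in the other expanded clones and 3.55 in single clones.

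The inhibitory receptor genes Tigit and Pdcd1 were higher in the comparison of all 35 expanded clones, and neither was called in the 24 without Foxp3-positive cells. Whether the clones with and without Foxp3-positive cells differed from each other in them was not tested, and the means of both are given. Of 11 genes tested on the list of inhibitory receptors and exhaustion, 3 were higher and 0 lower, with a median log2 difference of 0.77, while 0 were called and the median was 0.54 without the Foxp3-holding clones. Tigit, an inhibitory receptor that competes for CD155, was seen in 23 of 35 expanded and 131 of 612 single clones. It ran from 0 over 1.49 to 18.8 UMIs per 10000 in expanded clones, and from 0 over 0 to 29.4 in single clones (log2 difference 1.47, SE 0.23, adjusted p = 4.41e-07). Its mean was 5.41 in the 11 clones with Foxp3-positive cells, 1.39 in the other 24 and 1.02 in single clones, and the difference of the 24 was 0.67 (adjusted p = 1.00).

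Pdcd1, which encodes PD-1, ran from 0 over 1.81 to 9.77 in expanded clones (log2 difference 0.94, SE 0.23, adjusted p = 0.0165), with means of 4.40 in clones with Foxp3-positive cells, 2.24 in the others and 1.64 in single clones. Rgs16, a regulator of G protein signalling on the same list, had a log2 difference of 1.75 (adjusted p = 0.000385) and means of 2.03, 0.350 and 0.278 in the same order. In the 24 clones the log2 difference was 0.58 for Pdcd1 and 0.73 for Rgs16, and neither was called (adjusted p = 1.00 for both). Lag3 and Ctla4 had log2 differences of 1.15 (adjusted p = 0.109) and 0.77 (adjusted p = 0.132), and Tox had 0.59 (adjusted p = 0.292). Without cells carrying RNA of another type Lag3 and Ctla4 were called, with log2 differences of 1.41 (adjusted p = 0.00621) and 0.81 (adjusted p = 0.0395). Clone 16 had the highest Tigit, at 18.8, and clone 22, without a Foxp3-positive cell, had 10.2, so the range within each kind of expanded clone was wide.

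Genes of regulatory T cells other than Foxp3 had 2 higher and 0 lower of 12 tested, with a median of 0.42, and 0 called with a median of -0.003 without the Foxp3-holding clones. Ikzf2 encodes Helios, a transcription factor of regulatory T cells. It was seen in 29 of 35 expanded and 235 of 612 single clones, and ran from 0 over 4.18 to 30.7 UMIs per 10000 in expanded clones (log2 difference 1.26, SE 0.22, adjusted p = 2.36e-05). In the cells by the CD4 rule of the 11 clones with Foxp3-positive cells its mean was 18.1 ± 9.09 (SD), and in the 8 expanded clones built from Foxp3-positive cells, 7 of which carry the receptor of an expanded CD4 clone, it was 17.0 ± 5.07. In the other 24 expanded clones it was 2.90 ± 3.10, and there the log2 difference from single clones was 0.16 (adjusted p = 1.00). Clone 15, with 1 Foxp3-positive cell of 7, had an Ikzf2 level of 0, and clone 2, without any, had 10.7. Itgb8, an integrin chain that activates TGF-beta, was the other called gene (log2 difference 1.72, adjusted p = 0.0324), with 0.94 in the 24 clones, where it was not called (adjusted p = 1.00). Il2ra, Nrp1 and Ikzf4 had log2 differences of 0.29, 0.20 and 1.11 and did not pass.

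Of the cytotoxic and type 1 helper genes, 2 of 19 were higher and 0 lower, with a median log2 difference of 0.02. Ccl5, a chemokine of memory and effector T cells, was called again without Foxp3-holding clones, without cells carrying RNA of another type and with neither, but not with 1 cell per clone (adjusted p = 0.12). It ran from 0 over 2.17 to 288 UMIs per 10000 in expanded clones and from 0 to 288 in single clones, with a log2 difference of 1.14 (SE 0.26, adjusted p = 0.00597). Without Foxp3-holding clones the difference was 1.54 (adjusted p = 0.000283). Clone 28 alone gave 25.0% of the expanded clones' Ccl5 UMIs. Clones 34, 12 and 26 had levels of 92.4, 74.1 and 49.7, while 8 of the 35 clones had none, so Ccl5 set a few clones apart from the rest. Gzma, the granzyme A gene, had the largest ratio among the higher genes named here, with a log2 difference of 3.39 (SE 0.42, adjusted p = 6.99e-12), but 69.6% of its UMIs came from clone 28 and it was seen in 8 clones. It was called in the same 3 reduced comparisons, with a log2 difference of 3.90 in the 24 clones (adjusted p = 3.44e-15), and not with 1 cell per clone (adjusted p = 0.917). Clone 28 had 54.7 Gzma, 288 Ccl5, 28.8 Nkg7 and 11.9 Zeb2 UMIs per 10000. Nkg7, Gzmb, Ifng and Tbx21 had log2 differences of -0.11, -1.38, 0.23 and 0.24 and did not pass. Zeb2, a transcription factor of terminal effector cells that microglia also transcribe, named here after its values were seen, had a log2 difference of 1.72 and was called in those 3 comparisons (adjusted p = 2.48e-05, 0.00999 and 0.000767) but not with 1 cell per clone (adjusted p = 0.825).

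**Figure D4:**
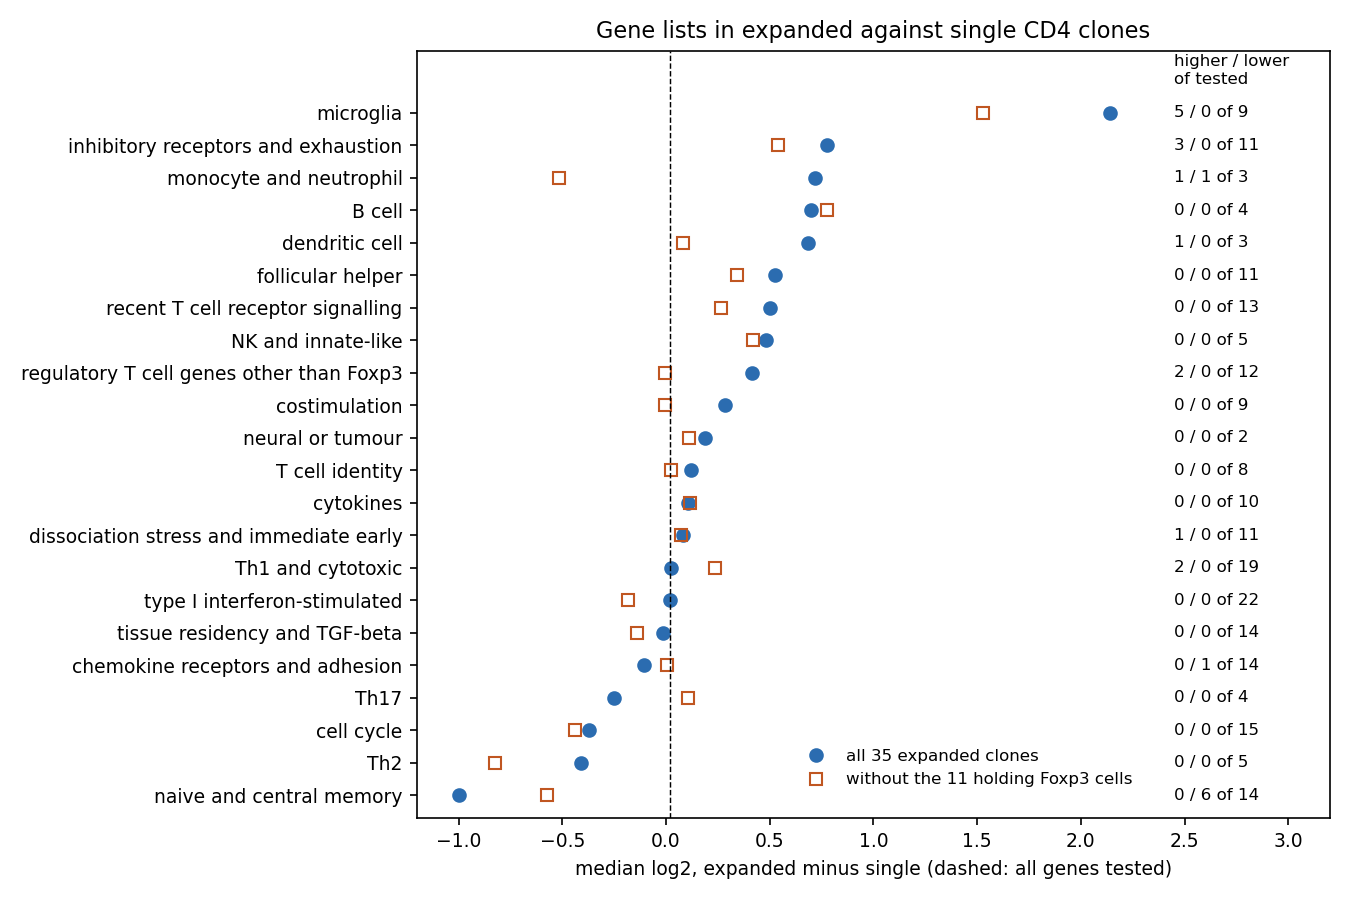
Median log2 difference of each gene list (horizontal axis, expanded minus single) over its tested genes, for all 35 expanded clones (filled circles) and without the 11 that hold Foxp3-positive cells (open squares). The numbers at the right give the genes called higher and lower of those tested. Genes with no UMI in expanded clones enter the circles at their floor value, and the squares leave out genes without a finite ratio. Among the filled circles, naive and central memory genes lie lowest, at -1.0, and microglial genes highest, at 2.14. Among the open squares, type 2 helper genes lie lowest, at -0.83.

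Genes that respond to antigen receptor signalling, follicular helper genes and most other helper programmes gave no call in all 35 clones. The 13 genes of recent receptor signalling had a median of 0.50 with 0 called, the 11 follicular helper genes 0.53 with 0 called, and the 22 interferon-stimulated genes 0.02 with 0 called. Without cells carrying RNA of another type, 1 of the signalling genes was called, Batf, a transcription factor of activated T cells (log2 difference 0.84, adjusted p = 0.0204). With neither these cells nor the Foxp3-holding clones, 1 of the follicular helper genes was called, Tnfsf8 (0.91, adjusted p = 0.0225). The 15 cell cycle genes had a median of -0.37 with 0 called. Type 2 and type 17 helper genes had 0 called of 5 and 4 tested, and costimulation, residency and cytokine genes 0 of 9, 14 and 10. Of the 9 genes that the study names for expanded CD8 clones, which were chosen on these samples and so are no independent evidence, 2 were higher and 1 was lower. Beyond the lists, Cxcl10 had a log2 difference of 1.20 (adjusted p = 0.00157), but its mean was 8.92 in clones with Foxp3-positive cells, 1.51 in the others and 1.8 in single clones. Ttn, Gadd45b and Malt1, a signalling protein downstream of the antigen receptor, had log2 differences of 1.48, 1.15 and 0.77 (adjusted p = 0.0001, 0.0223 and 0.0324), and 0.97, 0.83 and 0.68 without the Foxp3-holding clones, where none was called (adjusted p = 0.857, 1.00 and 0.746). On the list of dissociation stress and immediate early genes, which handling of tissue can raise, 1 of 11 was higher and 0 lower. This was Zfp36, which destabilises cytokine transcripts. It had 0.84 (adjusted p = 0.0348) and was called in none of the reduced comparisons. Its log2 difference was 1.01 without Foxp3-holding clones (adjusted p = 0.0559) and 0.49 without cells carrying RNA of another type (adjusted p = 0.672). With neither it was 0.73 (adjusted p = 0.717).

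Microglial genes were the list with the largest median difference, 2.14 over 9 tested, with 5 higher and 0 lower, and this moved with a few clones. Without the cells that carried RNA of another type, 0 of them were called and the median was 0.78. C1qb, a complement subunit of microglia, had a level of 27.0 in clone 30, 23.9 in clone 25 and 8.84 in clone 35 and at most 1.12 in the other 32 clones (log2 difference 1.60, adjusted p = 0.000117, and 0.81 with adjusted p = 0.927 without those cells). Cxcl13, a B cell attracting chemokine that exhausted and follicular helper T cells can also make, was named after its values were seen. Its level was 27.4 in clone 30, 17.8 in clone 25 and 9.72 in clone 35, the same 3 clones, and its log2 difference of 2.64 (adjusted p = 6.99e-12) became 1.38 (adjusted p = 0.601) without those cells. Plasma cell transcripts lay in other clones. Mzb1 was at 16.5 and 10.4 in clones 21 and 32, which had 8027 and 10144 UMIs per cell, and 56.1% of the Ighv1-50 UMIs came from clone 32. Without cells carrying RNA of another type Mzb1 no longer had enough clones to be tested, and Ighv1-50 was not called (log2 difference 0.64, adjusted p = 0.717). Whether these cells are doublets was not tested, and no doublet caller was run. Cd74, the invariant chain of class II presentation, had 0.96 (adjusted p = 0.0187), with 45% of its UMIs from clone 32, and was not called without those cells (0.78, adjusted p = 0.717) or without the Foxp3-holding clones (0.83, adjusted p = 0.612). Its sign changed, to -1.17 (adjusted p = 1.00), when both were left out.

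The values on either side of the size threshold were as follows, with no test. The pooled level of Tigit was 0.933 UMIs per 10000 in clones of 1 cell, 1.30 in those of 2, 1.52 in those of 3, 2.72 in those of 4, 1.63 in those of 5 to 9 and 5.00 in the 2 largest. Il7r was 5.57, 4.98, 3.05, 2.78, 3.13 and 0.672 in the same order. Ccl5 did not follow clone size, with 7.80, 9.84, 13.7, 21.7, 11.2 and 6.01. Cxcl13 was highest in clones of 3 cells, with 0.288, 0.103, 6.18, 3.36, 0.313 and 0.187. Ikzf2 was 3.00, 3.13, 3.09, 5.05, 7.93 and 17.0, and clones of 3 cells included 0 of 20 with a Foxp3-positive cell against 6 of 20 clones of 4 cells.

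The difference between expanded and single CD4 clones was compared with the same difference in CD8 clones (58 expanded, 595 single) and in regulatory clones built from Foxp3-positive cells (8 expanded, 127 single) in 1 fit of 12202 genes. The classes are not independent, since 7 of the 8 expanded regulatory clones carry the receptor of an expanded CD4 clone, and 0 of the 58 expanded and 7 of the 595 single CD8 clones do. Without clones found in more than 1 class, the genes called fell from 40 to 25 against CD8 clones and from 1 to 0 against regulatory clones. Against CD8 clones, 39 genes had a higher difference in CD4 clones (0.32%) and 1 a lower one (0.0082%). Without cells carrying RNA of another type 12 were called, of which 9 were among the first 40. Ikzf2 was one of the 9, with an excess of 2.15 on the log2 scale (adjusted p = 7.14e-08). Its own log2 difference was -0.87 in CD8 clones and 1.26 in CD4 clones. In CD4 clones it was 0.16, and not called, without the Foxp3-holding clones. Its mean was 7.67 in expanded and 3.55 in single CD4 clones, and 0.626 and 1.30 in expanded and single CD8 clones. In the same order, the means of St6gal1 were 0.993, 1.14, 0.0401 and 0.239, those of Nr4a1 0.419, 0.223, 0.0338 and 0.10, and those of Tnfsf8 4.16, 2.89, 0.605 and 1.01. St6gal1 was thus not higher in expanded than in single CD4 clones, and its own log2 difference was -0.21 in CD4 and -2.77 in CD8 clones. The excess was called for St6gal1, a sialyltransferase (2.55, adjusted p = 0.00136), Nr4a1, an immediate response gene of receptor signalling (3.19, adjusted p = 0.0135), and Tnfsf8, the ligand of CD30 (1.10, adjusted p = 0.0399). In expanded against single CD4 clones themselves, Nr4a1 (log2 difference 1.14, adjusted p = 0.36) and Tnfsf8 (0.61, adjusted p = 0.386) were not called, and 43.9% of the Nr4a1 UMIs of expanded clones came from 1 clone. Ctla2a, a protease inhibitor, was lower by 1.45 (adjusted p = 0.0076). It had means of 0.948 and 1.72 in expanded and single CD4 clones, and 3.81 and 2.50 in CD8 clones. For Ccr7 the log2 difference was -1.85 in CD4 and -2.63 in CD8 clones, an excess of 0.77 that did not pass (adjusted p = 0.901). Against regulatory clones 0 genes had a higher and 1 a lower difference, Apoe (-4.52, adjusted p = 2.96e-05), and Apoe was not called without cells carrying RNA of another type (1.83, adjusted p = 1.00).

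The library labelled mavrilimumab 1 on the receptor side holds 262 CD4 clones, of which 255 have 1 cell and 7 have 2 or 3. Those 7 were compared with the 255, at another threshold and chosen after the data were seen. In it 9 of the 10 lower genes had the same direction, and 13 of the 27 higher genes that could be tested did. The median log2 difference over all 9738 genes tested there was 0.02, and the share of them with each direction was not taken. A gene with few UMIs can be at 0 in 7 clones and so count as lower. The 2 counts are therefore given as a description.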

How the data were processed

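Counts of UMIs per gene and droplet were deposited unfiltered by the authors. The file headers name Cell Ranger 9.0.1, whereas the submitters' processing notes name Cell Ranger 7.1.0, Scanpy 1.8.2 and mm10. The receptor files list assembled contigs. Here, barcodes were joined as described, UMIs were summed per clone and offset by the total UMIs of the clone, and genes with a UMI in at least 10 clones were tested with edgeR 4.0.16 (R 4.3.3) after receptor, mt-, Cd4, Foxp3, Cd8a and Cd8b1 genes were left out. Levels are UMIs per 10000, SEs are those implied by the p-values, and folds against 0 use a floor of 3 UMIs over the group, for counting error only. Fisher's exact test and permutation tests (100000 resamples) used scipy 1.17.1. DESeq2 1.42.0 and limma 3.58.1 served as alternatives.

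The edgeR setting was chosen after the data were seen. The fit first planned, the quasi-likelihood fit with unadjusted deviances, made too many false calls on simulated counts. In all 6 edgeR fits were then looked at on simulated and on real counts side by side, and the one kept, with deviances adjusted for small counts and a trended dispersion, made about as few false calls as another of them, with fewer than the rest, and every one of the 6 still made some. The calls of the other 5 are given under the dependence on processing.

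Named genes were up to 15 per direction with the largest difference among called genes with a mean of at least 0.5 UMIs per 10000, members of the gene lists, and the 5 largest clones' receptors, with a few others named as chosen after their values were seen. Members, lists and rule were chosen with earlier results of these data known. No doublet caller was run, and a limit of 200 to 6000 genes per cell left the counts of calls at 42 and 10. The receptor library labelled vehicle IgG 2 was not used here. Not every called gene is reported here.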

Additional observations from a re-analysis of the deposited data

How the results depend on the processing

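The counts of called genes depended on which clones were compared and on the test. For the genes higher and lower in expanded CD4 clones (42 and 10), the counts were 87 and 47 when clones were sized over all cells with a receptor pair (63 against 537 clones), 1 and 0 with 10 or more cells (2 clones), 21 and 2 without clones holding Foxp3 or Cd8 cells, 9 and 0 with 1 cell per clone, 92 and 17 with UMIs per cell as a covariate, and 0 and 0 with at least 2 Cd4 UMIs per cell (7 against 417 clones). At an unadjusted p under 0.05, edgeR's quasi-likelihood test gave 63 lower genes for 10 or more cells, 361 lower for 1 cell per clone, and 67 higher and 119 lower for 2 Cd4 UMIs. The lower count was 17 with clones of 2 or more cells as expanded and 16 with no gene filter, and the higher count was 24 with a filter of 30 clones. Among settings added after the data were seen, the counts were 12 and 1 without clones holding Foxp3-positive cells, 5 and 4 without those clones and cells with RNA of another type, and 71 higher in the other library. The other edgeR fits looked at gave 112 and 32 with unadjusted deviances (the fit first planned), 113 and 31 with these and robust, 55 and 12 with adjusted deviances and a dispersion from the highest genes, 46 and 9 with a variance of at least 1, and 4 and 0 with the likelihood ratio test. DESeq2 gave 1 and 2, with 8988 adjusted p-values not set. The median log2 difference of all genes, 0.02 in the comparison reported, was 1.10 with TMMwsp, -0.93 in DESeq2, -1.64 in limma-voom and 0.12 in limma-trend. The counts, which in both limma settings also rest on another test, were 7040 higher with TMMwsp, 4 higher and 9901 lower with limma-voom and 180 higher and 0 lower with limma-trend, while gene values are given relative to that shift.

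The difference against CD8 clones (40 genes) gave 25 without clones found in more than 1 class and 12 without cells with RNA of another type. The difference against regulatory clones (1 gene) gave 7 with clones sized over all cells and 7 with TMMwsp, and 0 both without clones found in more than 1 class and without cells with RNA of another type (at an unadjusted p under 0.05, 170 higher and 104 lower, and 265 higher and 258 lower by edgeR's quasi-likelihood test, the only tool run for this). The beta CDR3 difference was -0.17 bases with clones sized over all cells. In the other library, with 7 clones of 2 or 3 cells against 255, it was -0.15 bases and the alpha difference was -0.43 bases (exact permutation tests, p = 1.00 and 0.857), and 0 V genes passed Fisher's exact test in either setting.

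Reversed log2 differences, with the cause not tested, were, with 10 or more cells, C1qb -1.45, C1qc -1.95, Cx3cr1 -1.68, Csf1r -0.76, Ly86 -1.34, Cxcl13 -0.58 and Ccl5 -0.47. With 2 Cd4 UMIs they were C1qb -0.73, C1qc -2.33, Ly86 -0.57 and Cd74 -0.61. With 1 cell per clone they were Cxcl10 -0.64 and Ly86 -0.89. Without clones holding Foxp3 or Cd8 cells they were Ikzf2 -0.31 and Cxcl10 -0.22, without clones holding Foxp3-positive cells Cxcl10 -0.011, and with neither those nor cells of another type Cd74 -1.17. In limma-voom they were Il7r 0.55, Itgam -0.27, Sparc -0.27, Csf1r -0.17 and Mzb1 -0.33. In the other library they were C1qb -1.53, C1qc -1.52, Ikzf2 -0.073, Cxcl10 -2.24, Zfp36 -0.94 and Ly6c2 1.28.

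No paired analysis was possible because both kinds of clone come from 1 library. The other library holds no CD4 clone of 4 or more cells, so at that size sums per library and class with library as a block, and V gene and CDR3 tests there, could not be run. A fit that added only the single clones of that library, with library as a term, left 28 gene results the same and 6 weaker.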
